A study of Rattus norvegicus with 9 samples.

Results

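The genes of 7 subunits of the GABA-A receptor, Gabra2, Gabra3, Gabra4, Gabra5, Gabrb1, Gabrb2 and Gabrd, are described here in hippocampus (HC), prefrontal cortex (PFC) and blood of the rat. They were found by gene symbol in the annotation of the array, each gene has 1 probe set, and these 7 are among 29214 probe sets with values, or 14506 symbols, and among 16 GABA-A receptor genes that have a probe set. The study profiled gene expression in untreated male Wistar rats that were 6 weeks old on arrival and were housed for 1 week. HC and PFC were punched from frozen brain slices, so each sample is a mixture of all cells in the punch, and blood was collected into an RNA stabilizer. Rats 2, 5 and 7 each gave 1 HC, 1 PFC and 1 blood array (Affymetrix Rat Gene 1.0 ST), 9 arrays in all with n = 3 per tissue. The number of animals is given as 4 in the methods, 6 in the sample labels and 3 in the series description, and 3 were analysed here.

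The GABA-A receptor is a chloride channel of the cell membrane that opens when GABA, the main inhibitory transmitter of the brain, binds to it. Several subunits of different families assemble into 1 channel, and most receptors hold alpha and beta subunits together with a gamma or a delta subunit. The alpha subunit sets much of the response to GABA and to benzodiazepines, the beta subunits form the GABA binding site together with alpha and are needed for assembly, and delta takes the place of gamma in receptors outside the synapse that carry tonic inhibition.

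Values are RMA values on the log2 scale, so a difference of 1 is a 2-fold change. Presence of a gene means that its 3 arrays of a tissue averaged more than 6.2, the intensity cut-off of the study. The study also required a detection p-value of 0.05 or less, which was not used here. All 7 subunits were present in HC, against 47.2% of all probe sets, and all 7 in PFC, against 47.1%. In blood 1 of 7, Gabrd, was present, against 46.9% of all probe sets. Between the brain regions, Gabra5, Gabrb1 and Gabra2 were higher in HC, Gabra3, Gabrd and Gabrb2 were lower in HC, and Gabra4 was not called. Differences were tested with limma over 16884 probe sets present in at least 1 tissue and were called at a Benjamini-Hochberg adjusted p under 0.05. In HC minus PFC, 6 of 7 subunits were called, against 9.16% of all probe sets tested. The members and gene lists were chosen with earlier results of these data known, so these counts are descriptions. An RMA value depends on the probes of its probe set, so levels are compared between tissues and not between genes.

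**Figure D1:**
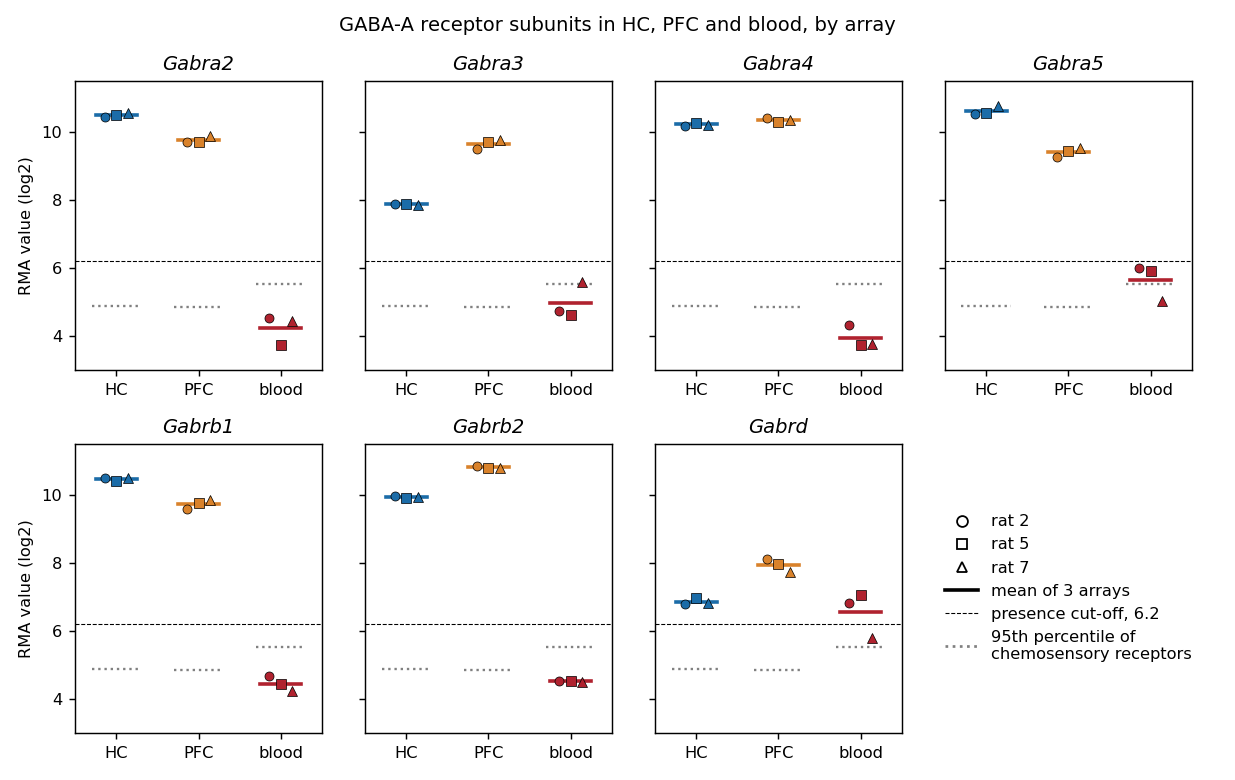
RMA values (log2, vertical axis) of the 7 subunits in HC, PFC and blood, with 1 point per rat and a bar at the mean of 3 arrays. The dashed line is the presence cut-off of 6.2, the dotted lines mark the background limit of each tissue, set by probe sets of chemosensory receptors, and all HC and PFC points lie above the cut-off, whereas only Gabrd has blood points above it.

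Gabra5 was the subunit with the widest excess in HC. Its alpha subunit is known for extrasynaptic receptors of hippocampal pyramidal cells. Gabra5 had RMA values of 10.52, 10.56 and 10.76 in HC of rats 2, 5 and 7, and 9.26, 9.43 and 9.52 in PFC of the same rats. All HC arrays were above all PFC arrays, and the lowest HC value was well above the highest PFC value. Arrays of HC and PFC did not overlap, in either direction, for 42.0% of all probe sets tested. The means were 10.61 ± 0.128 in HC and 9.40 ± 0.131 in PFC (SD, n = 3 each), a difference of 1.21 (standard error 0.227, limma adjusted p = 0.00845) or 2.31-fold, and it was 1.26, 1.13 and 1.23 within the 3 rats. Of all probe sets tested, 1.66% had a difference at least as wide in either direction. The call was lost when all arrays of rat 2 (1.18, adjusted p = 0.107) or of rat 5 (1.25, adjusted p = 0.105) were left out.

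Gabra2, whose alpha subunit is known from synapses on pyramidal cells, was also higher in HC. Gabra2 had 10.45, 10.49 and 10.55 in HC, and 9.71, 9.72 and 9.87 in PFC. The groups did not overlap, as for 42.0% of all probe sets tested in either direction. The difference was 0.73 (standard error 0.181, 95% interval 0.32 to 1.14, limma adjusted p = 0.0332), or 1.66-fold, with 0.74, 0.77 and 0.68 within the rats. This call ended when any of the 6 brain arrays was left out (0.70 to 0.78, adjusted p between 0.0787 and 0.12), when rat 2 (adjusted p = 0.216) or rat 7 (adjusted p = 0.231) was left out, and when dim probe sets were tested too (adjusted p = 0.0629).

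Gabra3 had the widest difference of the 7 and ran the other way. Its alpha subunit is known from cortex and from monoaminergic cells of the brain stem. Gabra3 had 7.90, 7.90 and 7.87 in HC, and 9.51, 9.70 and 9.78 in PFC. The HC values lay within 0.03 of each other, and the gap to PFC was many times that. The means were 7.89 ± 0.0221 in HC and 9.67 ± 0.14 in PFC (SD, n = 3 each), a difference of -1.77 (standard error 0.216, 95% interval -2.26 to -1.29, limma adjusted p = 0.000619), so that the level in HC was 0.292 of that in PFC. It was lower in HC in all 3 rats, with -1.61, -1.80 and -1.92. By size it was the 48th lowest HC minus PFC difference of 16884, and 0.575% of probe sets had one at least as wide.

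Gabra4, which codes for an alpha subunit that often pairs with delta outside the synapse, was close to equal in both regions. Gabra4 had 10.19, 10.27 and 10.22 in HC, and 10.40, 10.31 and 10.35 in PFC. The arrays did not overlap, but the groups were separated by less than 0.05, and such a separation in either direction was seen for 42.0% of all probe sets. The difference was -0.13 (standard error 0.144, 95% interval -0.45 to 0.20, limma adjusted p = 0.778). With only the 6 brain arrays in the fit it was not called either (95% interval -0.24 to -0.02, adjusted p = 0.0954), and 47.2% of probe sets had a difference at least as wide.

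The promoters of Gabra5 and Gabra3, which had the widest differences in the 2 directions, also lay at the 2 ends in CpG content. The sequences are from RefSeq (build GRCr8) and run from 250 bases before to 50 after the start of the gene. Among the members, 6 of 7 had an entry, all but Gabra2. The Gabra5 promoter (chr1:117516557-117516856, minus strand) and the Gabra3 promoter (chrX:155543821-155544120, minus strand) are shown with each CpG in capitals.
Gabra5: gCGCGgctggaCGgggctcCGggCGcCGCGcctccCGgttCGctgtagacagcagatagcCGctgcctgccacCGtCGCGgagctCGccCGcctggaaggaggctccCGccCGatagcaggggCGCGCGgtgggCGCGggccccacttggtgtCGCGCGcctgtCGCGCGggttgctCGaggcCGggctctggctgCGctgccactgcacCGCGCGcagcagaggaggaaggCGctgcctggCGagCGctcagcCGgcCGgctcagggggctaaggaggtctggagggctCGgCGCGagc
Gabra3: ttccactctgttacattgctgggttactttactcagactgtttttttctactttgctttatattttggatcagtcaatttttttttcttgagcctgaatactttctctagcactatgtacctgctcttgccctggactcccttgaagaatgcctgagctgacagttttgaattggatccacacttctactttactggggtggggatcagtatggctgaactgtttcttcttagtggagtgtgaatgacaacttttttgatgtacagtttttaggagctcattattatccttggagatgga
Gabra5 held 42 CpG, and 2.4% of 33469 promoters had at least as many, at a GC content of 76.3%. Gabra3 held 0 CpG, which 5.47% of promoters shared, at a GC content of 39.3%. The median of all promoters was 7 CpG and 51.7% GC. Of the other members, Gabrd held 40 CpG, Gabra4 held 35, Gabrb1 held 11 and Gabrb2 held 9, so CpG content did not follow the HC minus PFC direction across the 6, since Gabrd was lower in HC and Gabra4 was not called. The letters TATAAA of the TATA box were found in 1 of 6 promoters, Gabra3 (14.2% of all promoters held them on either strand). The match in Gabra3 was on the strand not shown and began at -194, counted from the first base of the gene as 1. The letters GGGCGG of an SP1 site were in 3 of 6, Gabra4, Gabra5 and Gabrd (33.1% of all promoters).

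The beta subunit genes Gabrb1 and Gabrb2 moved in opposite directions. Gabrb1 had 10.49, 10.40 and 10.48 in HC, and 9.57, 9.75 and 9.84 in PFC, with no overlap. The difference was 0.74 (standard error 0.123, limma adjusted p = 0.00442), or 1.67-fold, with 0.92, 0.65 and 0.64 within the rats, and it lost its call only when rat 5 was left out (adjusted p = 0.0743). Gabrb2 had 9.95, 9.90 and 9.92 in HC, and 10.86, 10.79 and 10.78 in PFC. The groups did not overlap and were tight, with an SD of 0.0234 in HC and 0.0433 in PFC. Arrays of HC and PFC did not overlap, in either direction, for 42.0% of all probe sets tested. The difference was -0.89 (standard error 0.0735, 95% interval -1.05 to -0.72, limma adjusted p = 6e-05), so that the level in HC was 0.541 of that in PFC, with -0.91, -0.88 and -0.87 within the rats.

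The promoters of the beta pair are shown because they share 3 stretches of 10 or more bases in the same order, more than any other of the 15 pairs of members. The stretches are in capitals in Gabrb1 (chr14:36902844-36903143, minus strand) and Gabrb2 (chr10:27439543-27439842, plus strand), both of build GRCr8.
Gabrb1: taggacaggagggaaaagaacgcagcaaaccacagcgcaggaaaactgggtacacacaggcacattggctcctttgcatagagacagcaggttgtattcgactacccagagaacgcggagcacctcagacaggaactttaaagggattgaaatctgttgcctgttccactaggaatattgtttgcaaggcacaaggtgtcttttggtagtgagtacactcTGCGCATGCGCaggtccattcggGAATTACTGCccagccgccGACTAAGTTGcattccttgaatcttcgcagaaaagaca
Gabrb2: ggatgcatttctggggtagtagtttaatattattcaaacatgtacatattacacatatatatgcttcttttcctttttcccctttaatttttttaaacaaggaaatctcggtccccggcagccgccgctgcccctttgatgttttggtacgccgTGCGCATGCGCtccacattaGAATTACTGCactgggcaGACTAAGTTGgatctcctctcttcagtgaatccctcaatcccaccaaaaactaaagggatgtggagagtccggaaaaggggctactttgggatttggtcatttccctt
The first stretch, TGCGCATGCGC, is, without its first base, the palindrome searched as the NRF1 site, the site of a factor of mitochondrial and neuronal genes. This site was in 0.852% of all promoters (285 of 33469) and in 2 of 6 members, this pair. Counted from the first base of the gene as 1, the stretch began at -30 in Gabrb1 and at -96 in Gabrb2. The other stretches, GAATTACTGC and GACTAAGTTG, began at -7 and 13 in Gabrb1 and at -76 and -58 in Gabrb2. The letters TGACGTCA of a CRE, GCGTGGGCG of an EGR site, which shares letters with the SP1 site, and CAGCTG of an E box were searched on both strands and matched 0 of 6 member promoters (1.83%, 0.544% and 15.1% of all promoters held them).

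Gabrd, the delta subunit of receptors outside the synapse, known from dentate granule cells and cerebellar granule cells, was lower in HC than in PFC. Gabrd had 6.78, 6.96 and 6.81 in HC, and 8.11, 7.97 and 7.73 in PFC. The groups did not overlap, as for 42.0% of all probe sets tested, and the HC values stood less than 1 above the presence cut-off. The difference was -1.09 (standard error 0.275, 95% interval -1.71 to -0.47, limma adjusted p = 0.0364), so that the level in HC was 0.47 of that in PFC, with -1.33, -1.01 and -0.92 within the rats. The call ended without any of the 6 brain arrays (-1.19 to -1.0, adjusted p between 0.0734 and 0.138), without rat 2 (adjusted p = 0.352) or rat 5 (adjusted p = 0.156), with dim probe sets tested (adjusted p = 0.0658) and with the arrays centred on 13 housekeeping genes (-0.98, adjusted p = 0.0739).

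The spread of the blood arrays entered these tests, because the 3 tissues shared 1 estimate of spread. For Gabra2 and Gabrd the SD over the blood arrays was 0.432 and 0.676, against 0.0505 and 0.0962 in HC and 0.0887 and 0.192 in PFC. With only the 6 brain arrays in the fit, Gabra2 (limma adjusted p = 0.000253), Gabra5 (0.000178) and Gabrd (0.000489) had smaller adjusted p-values, the same 6 of 7 subunits were called, and 25.7% of all probe sets were called. In that fit all 6 were still called when any 1 brain array was left out. This last setting was chosen after seeing the data.

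**Figure D2:**
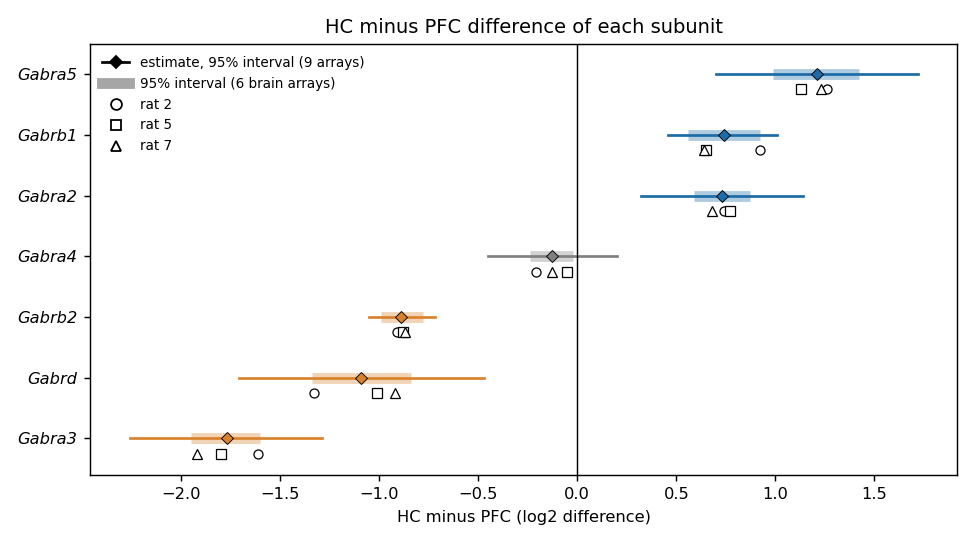
HC minus PFC difference (log2, horizontal axis) of each subunit, with diamonds for the estimate, thin lines for the 95% interval from 9 arrays, wide bars for that from the 6 brain arrays, and open symbols for the rats. Gabra5 at 1.21, Gabrb1 at 0.74 and Gabra2 at 0.73 lie to the right of 0, Gabrb2 at -0.89, Gabrd at -1.09 and Gabra3 at -1.77 lie to the left, and the 9-array interval of Gabra4 includes 0.

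In these bulk samples, fewer cells of a type and less RNA per cell cannot be told apart, and marker lists of cell types also differed between HC and PFC. The mean level of 10 pan-neuronal genes was 10.64 to 10.70 over the HC arrays and 10.88 to 10.97 over the PFC arrays, with Tubb3 (-0.46) and Elavl4 (-0.83) called lower in HC. The 12 interneuron genes averaged 8.19 to 8.26 in HC and 8.56 to 8.58 in PFC, with 3 called lower in HC, namely Sst (-0.68), Vip (-1.17) and Cck (-1.10), and 0 higher. Of the 8 oligodendrocyte genes 7 were higher in HC (9.80 to 10.17 in HC and 8.89 to 9.44 in PFC), and 1 of 9 astrocyte genes was. Among markers of the regions, 4 of 7 hippocampal pyramidal cell genes were higher in HC. So were 2 of 4 dentate granule cell genes, C1ql2 and Prox1, and 3 of 6 neocortical layer genes were lower. Of the 6 excitatory neuron genes 2 were higher in HC and 0 lower, and the choroid plexus gene Ttr was higher in HC. These calls are from the fit on 9 arrays, where 4.51% of all probe sets tested were higher in HC and 4.66% lower. With only the 6 brain arrays, these shares were 12.7% and 13.1%. In that fit 5 of 9 astrocyte genes and 8 of 8 oligodendrocyte genes were higher, and 0 lower. Of the pan-neuronal genes 1 was higher and 6 lower, and of the interneuron genes 1 and 5. Of the hippocampal pyramidal cell genes 6 of 7 were higher and 0 lower. The 4 dentate granule cell genes gave 2 higher and 1 lower, and the 6 excitatory neuron genes 4 and 1. Neocortical layer genes gave 0 higher and 4 lower. The part of these lists in the differences of the subunits was not tested. Beta globin (Hbb) stood at 8.38 to 8.90 in HC and 9.31 to 10.11 in PFC, and 2 of 8 erythroid genes, Hbb and Alas2, were lower in HC. Of the 12 leukocyte genes 0 were lower and 1 was higher in HC, and they averaged 4.64 to 4.67 in HC and 4.45 to 4.55 in PFC. For 5 of the 7 subunits, all but Gabra3 and Gabrd, the highest blood value lay more than 3 below the lowest brain value.

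Against blood, the 6 subunits other than Gabrd were higher in HC and in PFC by large margins. In HC minus blood 6 of 7 subunits were called higher, against 47.6% of all probe sets tested, and in PFC minus blood 7 of 7, against 47.3%. The median difference of the 7 was 5.40 in HC minus blood and 5.28 in PFC minus blood, against 0.218 and 0.201 over all probe sets, and 4.69 and 4.18 with values below background raised to the limit described next. Both comparisons use the same 3 blood arrays.

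In blood, Gabra2, Gabra4, Gabrb1 and Gabrb2 were not above background on any array. As background limit, 1297 probe sets of chemosensory receptors were taken, and their 95th percentile was 4.88 in HC, 4.85 in PFC and 5.53 in blood. For these genes the fold changes below were calculated with values raised to this limit and are lower bounds under the normalization of the authors. Gabra2 had blood values of 4.53, 3.75 and 4.46, and was at least 31.1-fold higher in HC and at least 18.8-fold higher in PFC than in blood. Gabra4 had 4.32, 3.74 and 3.77 in blood, and was at least 25.8-fold higher in HC and at least 28.2-fold higher in PFC. Gabrb1 had 4.67, 4.43 and 4.22 in blood, and was at least 30.3-fold higher in HC and at least 18.2-fold higher in PFC. Gabrb2 had 4.53, 4.53 and 4.50 in blood, and was at least 20.9-fold higher in HC and at least 38.7-fold higher in PFC. With the arrays also centred on the 13 housekeeping genes, a setting chosen after seeing the data, the bounds of these 4 genes were 8.02-fold to 11.9-fold in HC and 6.44-fold to 13.7-fold in PFC. As measured, the differences of these 4 genes were between 5.28 and 6.41 on the log2 scale, and the limma adjusted p-values were between 2.05e-11 and 1.97e-09.

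Gabra5 and Gabra3 had blood values on both sides of the background limit. Gabra5 had 6.01, 5.93 and 5.03 in blood of rats 2, 5 and 7, of which 2 were above the limit, with a mean of 5.66 ± 0.547 (SD, n = 3). It was higher by 4.95 in HC (limma adjusted p = 1.92e-08) and by 3.75 in PFC (adjusted p = 1.46e-07). Gabra3 had 4.75, 4.62 and 5.59 in blood, of which 1 was above the limit, and was higher by 2.91 in HC (limma adjusted p = 6.78e-07) and by 4.68 in PFC (adjusted p = 1.98e-08). With the low blood values raised to the limit, Gabra5 was still 27.6-fold higher in HC and 11.9-fold higher in PFC, and Gabra3 5.06-fold and 17.3-fold. With the housekeeping scaling as well, these came to 10.6-fold and 4.24-fold for Gabra5 and 1.94-fold and 6.13-fold for Gabra3.

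Gabrd was the exception, with blood values of 6.83, 7.05 and 5.79 in rats 2, 5 and 7. All 3 were above the background limit and 2 were above the presence cut-off, the array of rat 7 being the low one. In HC the values of Gabrd (6.78, 6.96 and 6.81) lay within the range of the blood values, and the difference was 0.29 (standard error 0.275, 95% interval -0.32 to 0.91, limma adjusted p = 0.337). In PFC Gabrd was higher than in blood by 1.38 (standard error 0.275, 95% interval 0.76 to 2.00, limma adjusted p = 0.000938), or 2.61-fold, with 1.28, 0.92 and 1.95 within the rats. The order of its levels was thus PFC above HC and blood, and HC and blood did not differ beyond their spread. Both directions against blood depend on the scaling, since with the arrays centred on 13 housekeeping genes, all of which were higher in both brain regions than in blood, Gabrd came to -1.09 in HC minus blood (adjusted p = 0.00417) and -0.11 in PFC minus blood (adjusted p = 0.712). Of 10 pan-neuronal genes, Rbfox3 and Tubb3 were present in blood, and the neuronal genes Snap25 and Syt1 were not above the background limit on any blood array.

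**Figure D3:**
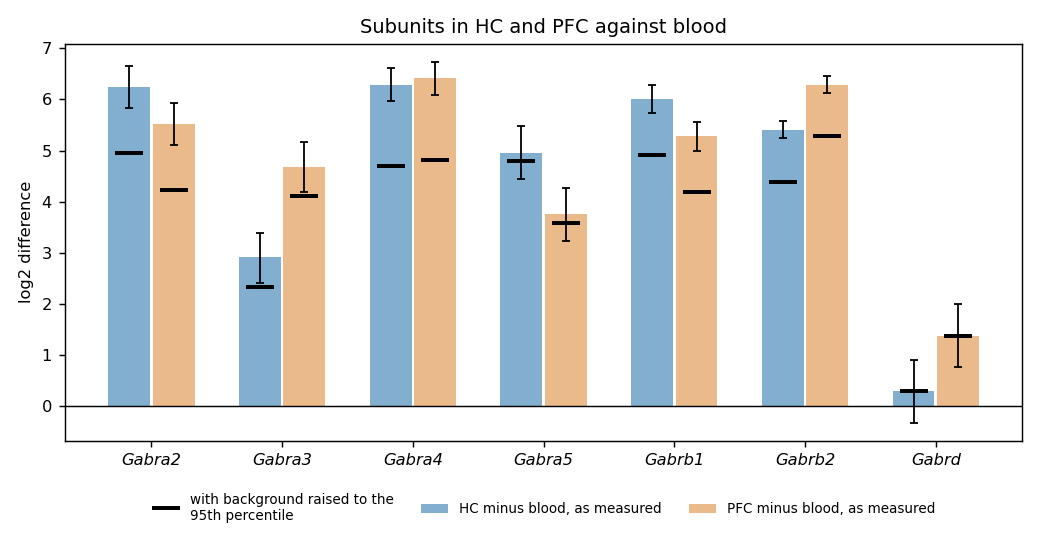
Log2 difference of each subunit in HC minus blood (left bar of each pair) and PFC minus blood (right bar), with the 95% interval of the limma fit on 9 arrays. The black marks show the difference after values below the background limit of their tissue were raised to it, which lowers Gabra4 to 4.69 and 4.82 and leaves Gabrd at 0.29 and 1.38.

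Of the 12 other GABA-A subunit genes listed, 9 had a probe set and 2, Gabrg1 and Gabrg3, were present in a tissue. The genes Gabra6, Gabre, Gabrp, Gabrq, Gabrr1, Gabrr2 and Gabrr3 were below the cut-off in HC, PFC and blood. The gamma subunit gene Gabrg1 had 9.09, 9.01 and 8.99 in HC, 8.73, 8.71 and 8.71 in PFC, and 3.79, 3.59 and 3.44 in blood. Its HC minus PFC difference was 0.31 (limma adjusted p = 0.0936, and 0.00304 with only the brain arrays). Gabrg3, another gamma subunit gene, had 6.80, 6.67 and 6.86 in HC, and 7.23, 7.55 and 7.63 in PFC, and was lower in HC by a difference of -0.69 (limma adjusted p = 0.0234). This call was lost when any 1 rat was left out (adjusted p between 0.0916 and 0.192). Gabrg3 was higher than in blood by 1.57 in HC and by 2.26 in PFC, but the HC value came to 0.18 (adjusted p = 0.242) with the housekeeping scaling.

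Many GABA-A subunit genes lie side by side in the genome, and neighbours did not always differ between HC and PFC in the same direction. The order was taken from the gene table of GRCr8. On chromosome 14, Gabrb1, Gabra4, Gabra2 and Gabrg1 follow each other, with 0, 1 and 0 other protein-coding genes starting between them. Their HC minus PFC differences were 0.74, -0.13, 0.73 and 0.31, of which Gabrb1 and Gabra2 were called. On chromosome 1, Gabrg3 and Gabra5 are direct neighbours, and their differences were -0.69 and 1.21, both called and opposite. Gabrb2 lies beside Gabra6 on chromosome 10, Gabra3 lies on chromosome X between Gabre and Gabrq, and Gabrd lies on chromosome 5 apart from these clusters.

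How many of the other genes of GABA signalling were called between HC and PFC depended on the fit. Over 6 lists, 43 of 52 genes with a probe set were tested, and in HC minus PFC 1 was called higher, 6 lower and 36 neither (4.51% of all probe sets tested were higher and 4.66% lower). With only the 6 brain arrays in the fit, 11 were higher and 10 lower, against 12.7% and 13.1% of all probe sets. Against blood, 35 were higher and 5 lower in HC (47.6% and 36.3% of all probe sets), and 36 were higher and 6 lower in PFC (47.3% and 36.7%). With the housekeeping scaling, 24 were higher and 15 lower than blood in HC (13.3% and 78.4% of all probe sets), and 19 were higher and 14 lower in PFC (12.2% and 80.1%). Of the 7 genes called in HC minus PFC, each lost its call when at least 1 array or 1 rat was left out, with adjusted p-values up to 0.273 for Gabbr2. The housekeeping scaling ended the calls of Plcl2 (adjusted p = 0.122), Gabbr2 (0.146), Slc12a5 (0.195) and Glrb (0.129), and testing dim probe sets ended those of Gabbr2 (0.0802), Slc12a5 (0.0763) and Wnk1 (0.0939).

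None of the 7 tested genes of GABA synthesis, transport and breakdown was called between HC and PFC in the fit on 9 arrays (median difference -0.04). Of all probe sets tested, 9.16% were called. With only the brain arrays 3 of 7 were called, 2 higher and 1 lower, against 12.7% and 13.1% of all probe sets. The GABA-producing enzyme gene Gad2 had 10.20, 10.21 and 10.28 in HC, 9.96, 9.99 and 9.87 in PFC, and 4.56, 4.91 and 4.30 in blood. Its HC minus PFC difference was 0.29 (limma adjusted p = 0.311, and 0.00703 with only the brain arrays), and that of Gad1, the other such enzyme, was -0.03 (limma adjusted p = 0.937). All 7 were higher than blood in both regions, against 47.6% of all probe sets in HC and 47.3% in PFC. In blood 0 of 7 were present, against 46.9% of all probe sets. With the housekeeping scaling 6 of 7 were still higher in each region, against 13.3% of all probe sets in HC and 12.2% in PFC. Under it the GABA transporter gene Slc6a13, named after its values were seen, came to -0.48 in HC minus blood (adjusted p = 0.011). In PFC minus blood it came to -0.27 (adjusted p = 0.107).

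Receptor assembly, trafficking and scaffold genes gave 1 call in 22 in the fit on 9 arrays, against 9.16% of all probe sets tested. With only the brain arrays, 7 were higher and 2 lower in HC, against 12.7% and 13.1% of all probe sets. The call on 9 arrays was the phospholipase C-like gene Plcl2, which binds proteins of receptor trafficking. Plcl2 had 8.10, 8.16 and 8.13 in HC, 8.63, 8.68 and 8.65 in PFC, and 10.54, 10.92 and 10.47 in blood, an HC minus PFC difference of -0.52 (limma adjusted p = 0.0195). Against blood 17 of the 22 genes were higher and 4 lower in each region. Of all probe sets, 47.6% were higher and 36.3% lower in HC, and 47.3% and 36.7% in PFC. But with the housekeeping scaling 9 of the 22 were higher and 10 lower in HC (13.3% and 78.4% of all probe sets). In PFC 6 were then higher and 10 lower (12.2% and 80.1%). Gphn, which codes for the scaffold gephyrin, was higher by 3.80 in HC and 3.67 in PFC, and Nsf, a factor of membrane fusion, by 4.07 and 4.16. The 4 lower genes were Plcl2 (-2.52 in HC and -1.99 in PFC), the receptor-associated protein Gabarap (-1.81 and -1.97), its relative Gabarapl2 (-1.61 and -1.67), both of which also act in autophagy, and the transport adaptor Trak2 (-0.37 and -0.71). The HC minus blood call of Trak2 (adjusted p = 0.0425) was lost without any 1 brain array or blood of rat 5 (adjusted p between 0.0509 and 0.0977), without rat 2 (0.113) or rat 5 (0.172), with only the 2 tissues in the fit (0.0851), with median centring (0.0766) and with dim probe sets tested (0.052).

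The GABA-B receptor is the G protein coupled receptor of GABA. Its subunit gene Gabbr2 had 9.29, 9.19 and 9.41 in HC, and 9.77, 9.82 and 9.91 in PFC (-0.54, limma adjusted p = 0.0417), and the auxiliary subunit gene Kctd8 had 6.35, 6.34 and 6.08 in HC, and 7.19, 7.31 and 7.06 in PFC (-0.93, limma adjusted p = 0.00262). Gabbr1, the partner subunit of Gabbr2, was not called (0.13, limma adjusted p = 0.476). Kctd8 was also higher in PFC than in blood (0.74), but this came to -0.75 with the housekeeping scaling.

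Of 7 chloride transport genes, which set the driving force of the channel, 1 was higher and 1 lower in HC. Of all probe sets tested, 4.51% were higher and 4.66% lower. The neuronal chloride exporter gene Slc12a5 had 9.84, 9.84 and 9.84 in HC, and 10.33, 10.24 and 10.16 in PFC (-0.40, limma adjusted p = 0.0364). The kinase gene Wnk1, a regulator of these transporters, had 9.62, 9.64 and 9.54 in HC, and 9.30, 9.18 and 9.22 in PFC (0.37, limma adjusted p = 0.0447). The call of Wnk1 was lost with the rat as a block (adjusted p = 0.0734) and at its second probe set (0.18, adjusted p = 0.496). Slc12a7, a chloride exporter gene of many tissues, was lower than blood by differences of -2.05 in HC and -1.75 in PFC. For the glycine receptor, the related inhibitory channel, the beta subunit gene Glrb had 10.01, 9.92 and 9.88 in HC, and 10.58, 10.38 and 10.25 in PFC (-0.46, limma adjusted p = 0.0196), and Glra2 was not called (0.35, adjusted p = 0.438).

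**Figure D4:**
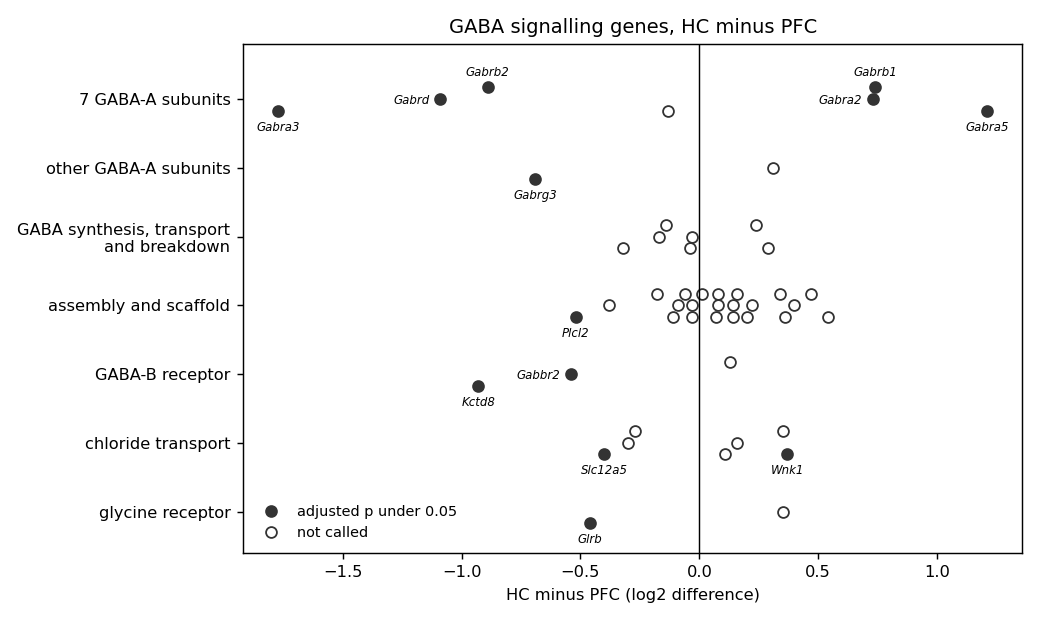
HC minus PFC difference (log2, horizontal axis) of the 7 subunits and of 43 further genes of GABA signalling, with 1 row per list and filled points for an adjusted p under 0.05. The 7 subunits in the top row span -1.77 to 1.21, and the called genes of the other lists lie between -0.93 and 0.37.

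Over the 9 arrays, each subunit was closer in pattern to a gene outside the subunits described here than to any of the other subunits. After each probe set was centred on its own mean, the root mean square difference between Gabra2 and Gabrb1 was 0.252 on the log2 scale, the smallest of the 21 pairs of subunits, followed by Gabra4 and Gabrb2 with 0.420. Gabrd stood farthest from the others, at 1.538 to 2.646. Among 9919 other genes, the 2 nearest to Gabra2 were Neto1 (0.163), an auxiliary subunit of kainate receptors, and the granin Scg2 (0.196), and the same 2 genes were nearest to Gabrb1 (0.177 and 0.208). The nearest to Gabrb2 were the AMPA receptor subunit Gria3 (0.186) and Glrb (0.211). Gabra4 was nearest to the sodium pump subunit Atp1b1 (0.209) and to Snurf (0.218), and Gabra5 to the astrocyte filament gene Gfap (0.211) and to the receptor Adcyap1r1 (0.240). Gabra3 had no gene as near, with Camk2n1, an inhibitor of CaM kinase II, at 0.290 and Sgtb at 0.296. Gabrd was nearest to Igfbp6 (0.175), a binding protein of insulin-like growth factors, and to Ankrd34c (0.186). These values describe 9 arrays of 3 tissues, so the differences between brain and blood enter them.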

How the data were processed

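RNA of HC, PFC and blood was measured on 9 Rat Gene 1.0 ST arrays, 1 per tissue of rats 2, 5 and 7. The authors quantile normalized the intensities, summarized them with RMA (Affymetrix power tools) and deposited 1 value per probe set on what was read as the log2 scale (1.53 to 14.01). Quantile normalization gives arrays like distributions, so a change common to most genes would not be seen. One normalization covered blood and brain, and array means were 6.154 to 6.202. The deposited distributions were not fully alike, since the SD over all probe sets was 1.851 to 1.904 on blood arrays and 2.184 to 2.211 on brain arrays. The detection p-values of the study were not used here. Of 29214 probe sets, 15310 had 1 gene symbol, 323 several and 13581 none here. Array number limits the precision.

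Tissue and rat came from the sample labels. limma 3.58.1 (R 4.3.3) was fitted to all 9 arrays with tissue as a factor, without the rat, on 16884 probe sets that averaged above 6.2 in any tissue. The p-values were adjusted over all of them by Benjamini-Hochberg. The script was tested on simulated data. An exact permutation test of 3 against 3 arrays cannot go below p = 0.1, so none is given. Arrays of 1 number come from the same rat, which pairs them, and their deviations from the tissue means correlated by 0.137 to 0.287 between HC and PFC, by 0.026 to 0.046 between HC and blood, and by -0.079 to 0.052 between PFC and blood. Alternatives were filters, scaling, background, the rat as a block, array weights and left-out arrays or rats. The members and lists were chosen with earlier results of these data known. All members were named, and of each list up to 3 genes with the widest called HC minus PFC difference, up to 2 with the widest brain minus blood difference, and each gene lower in both regions than in blood. Of the other subunits all tested were named, and for likeness the 2 nearest genes of each member. Promoters and gene order came from RefSeq (GRCr8). The genome build of the array is not given in the sources used here.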

Additional observations from a re-analysis of the deposited data

How the results depend on the processing

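Gabra3 and Gabrb2 were called in HC minus PFC under all 30 alternatives run, and Gabra4 under none. Gabra2 and Gabrd kept their direction in HC minus PFC under all 30 and lost the call under 9 and 10 of them. Members called in HC minus PFC numbered 3 to 6 when arrays or rats were left out, with 3 without rat 2 or rat 5 and 4 without any 1 brain array. All probe sets called were 1547, and 656 to 2629 when arrays or rats were left out, with 656 without rat 7, 705 without rat 2, 835 without rat 5, 930 to 987 without any brain array but that of PFC of rat 2 (1058), and 2629 without blood of rat 5. They were 4346 with only the 6 brain arrays, 4584 with array weights by tissue, and, in the setting chosen after seeing the data, with brain arrays only, 3058, 3291 and 3367 without HC of rats 2, 5 and 7 and 4041, 3121 and 3523 without PFC of these rats. With no filter, 29214 probe sets were tested, and 22044 were called in HC minus blood and 22091 in PFC minus blood, against 14163 and 14176. In HC minus blood, 13581 of them were lower, against 6133 with the filter, and 8463 higher, against 8030. Subunits present in blood numbered 0 at a cut-off of 7.2 or above 6.2 on each array, and 2 with the background limit as cut-off or the housekeeping scaling.

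With the rat as a block, 6 subunits were called in HC minus PFC, 6 in HC minus blood and 7 in PFC minus blood, so the block changed no call of a subunit, and among the other genes named it ended that of Wnk1 (adjusted p = 0.0734). All probe sets called in HC minus PFC with the block numbered 1390 (fixed) and 1556 (random).

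Centring on 13 housekeeping genes moved the median over all probe sets tested to 0.104 in HC minus PFC, -1.482 in HC minus blood and -1.598 in PFC minus blood, against -0.003, 0.218 and 0.201. Of the calls, 67.8% were then higher in HC than in PFC, 14.5% higher in HC than in blood and 13.3% higher in PFC than in blood, against 49.2%, 56.7% and 56.3%. Under this scaling Gabrd came to -1.09 in HC minus blood and -0.11 in PFC minus blood, and Kctd8 to -0.75 in PFC minus blood. With values raised to the background limit first, Gabrg3 came to -0.15 in HC minus blood, and Glra2 to -0.03 in HC minus blood and -0.49 in PFC minus blood. In both settings the 6 other subunits stayed higher in both regions than in blood. The second probe set of Wnk1 gave 0.35 in HC minus blood and 0.16 in PFC minus blood, against -0.04 and -0.41. The cause of these changes was not tested. Other probe sets of the members could not be tried, since each has 1. Signal limits the 4 subunits below background in blood to lower bounds.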
